A study of Drosophila melanogaster with 4 samples.

Results

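The neuropeptide precursor genes Pdf, AstC and Nplp1 and the processing chaperone gene 7B2 were followed in heads of Drosophila melanogaster males fed strychnine. They were chosen by name because earlier results of the same arrays gave low ratios for the 3 peptide precursors and a very low ratio on 1 array for 7B2. Their ratios are therefore given as a description, with no test. The array annotation pairs 2 neighbouring duplicate spots with each gene, 8 of the 27648 spots on the slide, under Entrez gene identifiers 43193 (Pdf), 34537 (AstC), 38003 (Nplp1) and 40644 (7B2). The 4 genes were among 2027 named genes, and among 4002 units in all, with a value in every distinct set of ratios. A unit is a named gene, or a duplicate pair of spots with no gene name.

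The treated flies were unmated males of the wild-type laboratory strain Oregon R, 3 to 4 days old at the start, fed strychnine in their food at 3.33 mg/ml for 7 days. Control males of the same strain, sex and age were kept on normal food for the same time. For replicate 1 the labels hold the control males on normal food for 2 to 3 days beforehand in place of 3 to 4. Vials held 30 flies at the start, and RNA came from pools of frozen heads, so each value averages brain, eye, fat body, muscle and cuticle. On each of the 4 two-colour cDNA arrays RNA of a treated pool competed with RNA of the control pool from the same parallel set. Treated RNA was labelled with Cy5 for replicates 1 and 2, and with Cy3 for replicates 3 and 4.

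Neuropeptides are cut from longer precursors inside secretory granules and act on neighbouring or distant cells, mostly through G protein-coupled receptors. Pdf encodes pigment-dispersing factor, the output peptide of a small set of circadian pacemaker neurons, which acts through the receptor Pdfr. AstC encodes allatostatin C, a relative of vertebrate somatostatin that acts through AstC-R1 and AstC-R2. Nplp1 encodes a precursor that yields several peptides in neurons of the brain and ventral cord. 7B2 encodes a granule chaperone needed by the prohormone convertase PC2, the product of amon, which cuts such precursors. In pooled heads, fewer cells of a type and less RNA per cell cannot be told apart.

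The deposited values are log ratios, read as log2, and their direction is not stated. Replicates 1 and 3 held identical values at all 7643 spots measured in both. Identical values are not separate measurements, so they count as 1 sample, called the common set, which leaves 3 distinct sets. The labels give their treated RNA opposite dyes, so the dye of the common set is unknown. Array medians were between -0.62 and -0.12, and each array was centred on its own median. Replicates 1 to 4 had a value at 7647 to 9725 spots. Channel intensities were not analysed here, so spot brightness is unknown and the number of arrays limits the precision. Marker genes of other head tissues were measured as well. Of 11 photoreceptor markers spotted with a gene name, 9 had a value on at least 1 array. The same held for 7 of 12 glial, 3 of 5 neuronal, 5 of 10 fat body, 6 of 10 muscle and 11 of 19 gut digestive enzyme genes. A ratio shows that a spot was measured, not how abundant the transcript was.

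Pdf had the most even ratios of the 4 genes. Its deposited log2 ratios were -0.96 and -0.80 on replicates 1 and 3, -1.29 and -1.45 on replicate 2, and -1.31 and -1.34 on replicate 4, given for its 2 spots in turn. After centring, Pdf was at -0.73 in the common set, -0.99 on replicate 2 and -0.71 on replicate 4. All 6 spot values were negative, and the sets lay close together. The mean was -0.81 ± 0.16 (SD, n = 3 sets), a size of 1.75-fold. The SD over the sets was smaller for 15.2% of all units, and the median SD was 0.34. Of the 4002 units, 6.10% had a lower ratio than Pdf in the common set, 9.85% on replicate 2 and 11.9% on replicate 4. Pdf thus stood in the lower part of each distribution and in the extreme tail of none.

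AstC was also negative in each set, with a wider spread. Its spots read -0.80 and -0.84 on replicates 1 and 3, -1.52 and -1.83 on replicate 2, and -1.01 and -0.86 on replicate 4 as deposited. Centred, AstC was at -0.67 in the common set, -1.29 on replicate 2 and -0.31 on replicate 4. Replicate 2 was the low set and replicate 4 the one nearest to 0. The mean was -0.76 ± 0.50 (SD, n = 3 sets), and -0.49 without replicate 2.

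Nplp1 had no value on replicate 3, so its common set is replicate 1 alone. The deposited spots read -0.30 and -0.26 on replicate 1, -1.69 and -1.98 on replicate 2, and -1.79 and -1.18 on replicate 4. Centred, Nplp1 was at -0.16 in the common set, -1.45 on replicate 2 and -0.86 on replicate 4. Replicate 1 was close to the middle of all units, where 36.5% lay lower, while 1.95% lay lower on replicate 2 and 7.47% on replicate 4. The mean was -0.83 ± 0.65 (SD, n = 3 sets), and -0.51 without replicate 2. Of the 2027 named genes, 539 had no value on replicate 3, and their median log2 ratio over the sets was 0.34, against -0.16 for the named genes with one. Nplp1 is a negative gene among those without a replicate 3 value.

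**Figure D1:**
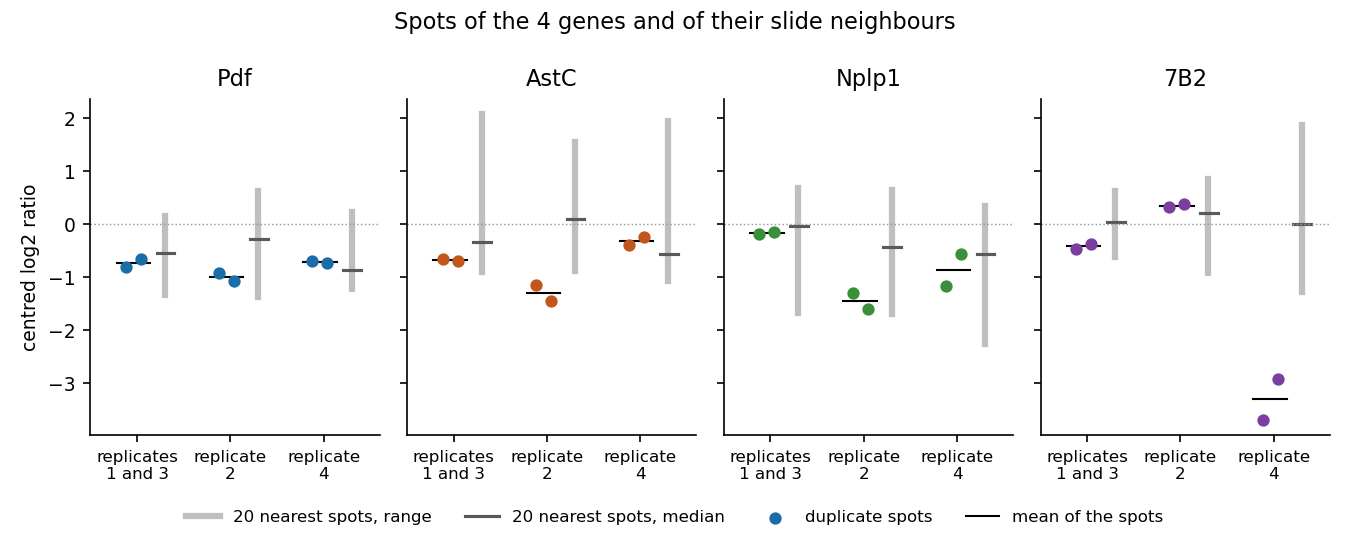
Centred log2 ratios (vertical axis) of both duplicate spots of Pdf, AstC, Nplp1 and 7B2 in the common set of replicates 1 and 3, on replicate 2 and on replicate 4. Black lines are the mean of the spots. Grey bars and ticks give the range and median of the 20 measured spots nearest in spot number within the same slide block. The 7B2 spots on replicate 4 lie at -3.69 and -2.92, below their neighbours, which run from -1.27 to 1.88.

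The 7B2 ratio differed between arrays far more than those of the peptide precursors. Its spots read -0.61 and -0.52 on replicates 1 and 3, -0.05 and -0.01 on replicate 2, and -4.31 and -3.54 on replicate 4 as deposited. The first spot of the pair was the lower one on each array. Centred, 7B2 was at -0.42 in the common set, 0.35 on replicate 2 and -3.30 on replicate 4, where its size was 9.86-fold. The gene was thus near 0 in 2 sets, with opposite signs, and very low in 1. The mean of -1.12 ± 1.93 (SD, n = 3 sets) rested on replicate 4. Without replicate 4 it was -0.03, and without replicate 2 it was -1.86. Of all units, 99.6% had a smaller SD over the sets. The choice of 7B2 for its low value on replicate 4 fixed a large SD, so nothing is read from this share.

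The low 7B2 reading was shared by its duplicate spots. On replicate 4, 20 of 9725 measured spots lay under -3 after centring. By unit, 8 of the 4002 (0.200%) lay under -3 on replicate 4, against 1 in the common set and 2 on replicate 2. Named among the 8 were glob1, Tim10, Yp2, CG17724 and 7B2. The spots of the other 4 genes differed from each other by 3.02 to 6.55 log2 units, while those of 7B2 differed by 0.77. At a looser bound, 2 of 4845 duplicate pairs measured on replicate 4 had both spots under -2.5, those of 7B2 and CG17724. CG17724 read -5.67 and -2.65, and 7B2 read -3.69 and -2.92, so neither pair had both spots under -3. Because 7B2 was chosen for its low value on replicate 4, nothing is read from these counts. The difference of 0.77 was itself large for a duplicate pair, since 94.3% of pairs on replicate 4 differed by no more than that.

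The 7B2 spots differed by 0.09 in the common set and 0.05 on replicate 2. The Pdf spots differed by 0.16 in the common set, 0.16 on replicate 2 and 0.04 on replicate 4. The AstC spots differed by 0.04, 0.31 and 0.15 in the same order. The Nplp1 spots differed by 0.04, 0.30 and 0.61, the last of which was at or above that of 91.3% of pairs on replicate 4. The median difference over all pairs was 0.14, 0.16 and 0.17 in the 3 sets. For AstC the gap between any pair of sets was larger than the difference between its spots in any set. For Nplp1 the gap between replicates 2 and 4 was no larger than the difference between its spots on replicate 4.

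**Figure D2:**
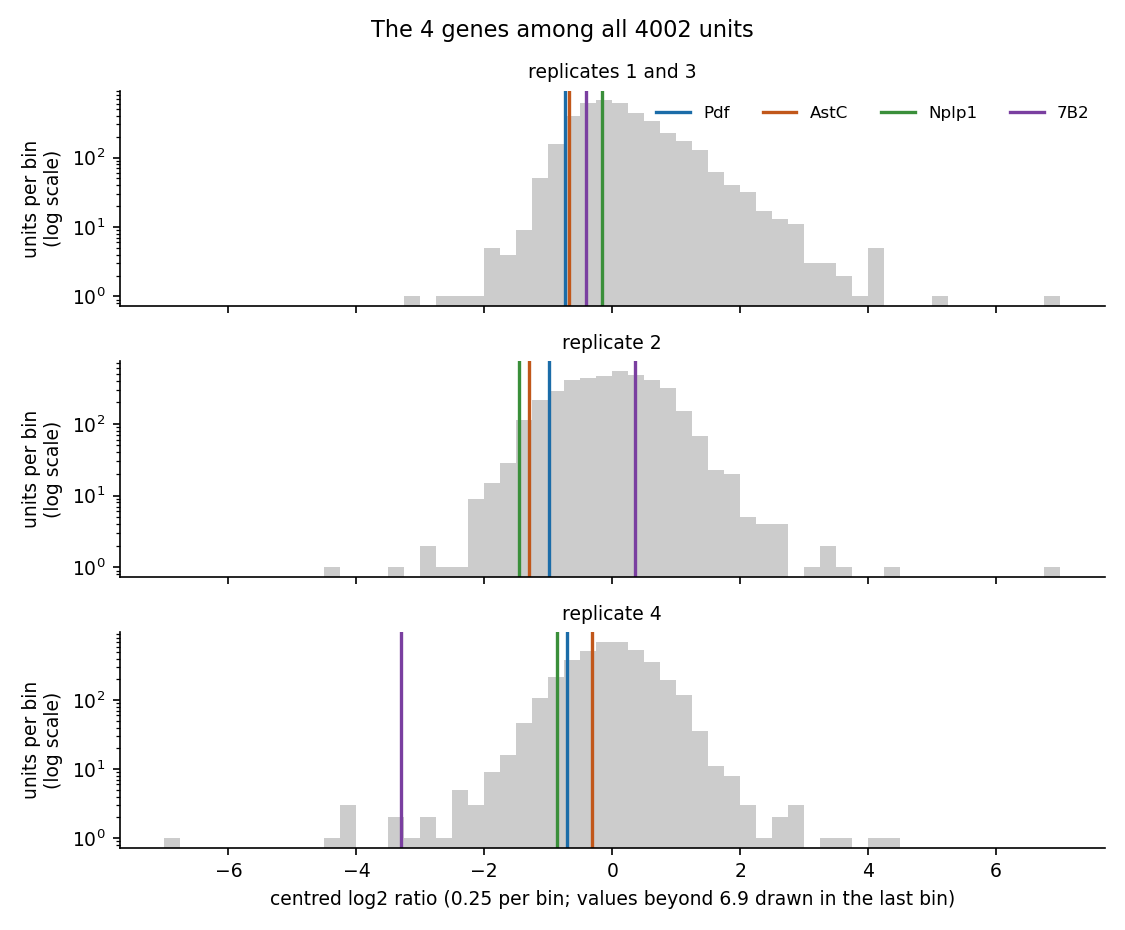
Number of units (vertical axis, log scale) by centred log2 ratio (horizontal axis) in the common set of replicates 1 and 3, on replicate 2 and on replicate 4, with coloured lines at the 4 genes. Pdf, AstC and Nplp1 are below 0 in each panel, with Nplp1 near the middle in the common set and AstC nearer to 0 on replicate 4 than elsewhere, and 7B2 stands apart on replicate 4 at -3.30.

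What a negative value means for treated heads depends on how the ratio was formed. If the values are treated over control, Pdf, AstC and Nplp1 had less signal from strychnine-fed than from control heads in every set, and 7B2 had less on replicate 4 and in the common set and more on replicate 2. If the values are control over treated, each of these directions turns round. If the values are Cy5 over Cy3, the part due to treatment changes sign with the dye. It is then the difference between replicate 2, with treated RNA in Cy5, and replicate 4, with treated RNA in Cy3, divided by 2.

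After array centring, that difference was smaller in size than the mean ratio for each precursor. For Pdf it was -0.14, from -0.99 on replicate 2 and -0.71 on replicate 4, and it ran from -0.27 with block medians subtracted to -0.007 with scale normalization. For AstC it was -0.49, from -1.29 on replicate 2 and -0.31 on replicate 4, and it ran from -0.61 with block medians subtracted to -0.26 with all 4 columns as labelled. The AstC mean with block medians subtracted was -0.39, smaller in size than the difference of -0.61. For Nplp1 it was -0.29, from -1.45 on replicate 2 and -0.86 on replicate 4, and it turned to 0.03 when the common set was read as treated RNA in Cy5. For 7B2 it was 1.83, from 0.35 on replicate 2 and -3.30 on replicate 4. It was 1.10 without replicate 1, where the common set counts as treated RNA in Cy3, and 0.90 with all 4 columns as labelled. Under this reading 7B2 would be higher in strychnine-fed than in control heads, and under treated over control it would be lower. Each value from replicates 2 and 4 alone sets 1 array against 1, so it has no replicate check. The others also code the common set, whose dye is unknown, by its labels.

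**Figure D3:**
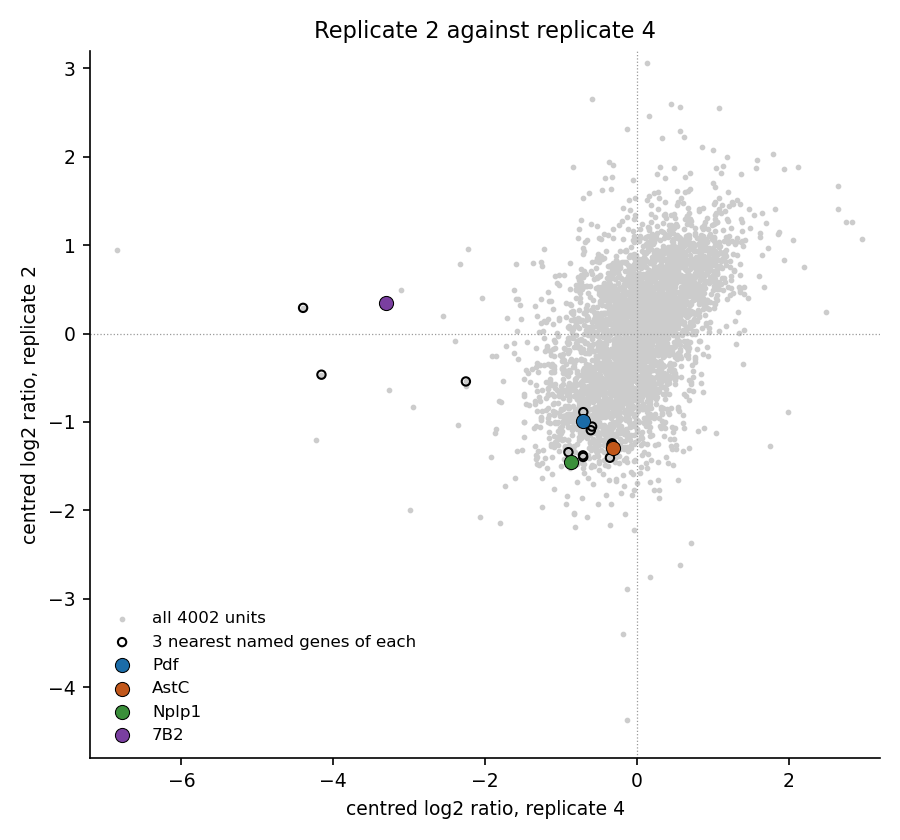
Centred log2 ratio on replicate 2 (vertical axis, treated RNA in Cy5) against replicate 4 (horizontal axis, treated RNA in Cy3), with all 4002 units as grey dots and the 3 named genes nearest to each of the 4 genes as open circles (9 units lie outside the axes). Pdf, AstC and Nplp1 lie where both arrays are negative, and 7B2 lies at -3.30 on replicate 4 and 0.35 on replicate 2.

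The low ratios have to be read against the whole slide. A negative ratio in all 3 sets, as in Pdf, AstC and Nplp1, was found for 26.2% of units (1047 of 4002). A mean at or below that of AstC together with a negative ratio in all 3 sets was found for 5.12% (205 units). The rule that chose these genes used the same ratios, so nothing is read from these shares. The mean over the sets was also fitted for every unit with limma, and 350 units (8.75%) passed a Benjamini-Hochberg adjusted p of 0.05 over all units, 298 of them positive (7.45%) and 52 negative (1.30%). That count fell to 7 without replicate 2. Without replicate 1 it was 64, but no distinct set was lost there. The common set was then replicate 3 alone, which holds the same values at fewer spots, and 3190 units were tested. In the dye-exchange difference, limma made 0 calls (0.00%), where 173 units had an unadjusted p under 0.05, and called 11 units (0.275%) on the values as deposited. With 3 sets, these p-values reflect how far the sets differ and nothing wider.

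Ratios also differed between parts of the slide. The slide was read as 48 blocks of 576 spots, in order of spot number. Pdf lies in a block whose median on replicate 4 was -0.63. The 20 measured spots nearest to it in spot number had a median of -0.87, lower than Pdf itself at -0.71. With the block median subtracted, Pdf was at -0.52 in the common set, -0.62 on replicate 2 and -0.08 on replicate 4. It kept its sign in each set, and its mean was -0.40 ± 0.29 (SD, n = 3 sets).

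The AstC block had a median of -0.63 on replicate 4 and -0.40 on replicate 2. With the block median subtracted, AstC was at -0.60 in the common set, -0.90 on replicate 2 and 0.32 on replicate 4, so its sign turned on replicate 4. Nplp1 was at 0.03 in the common set, -1.10 on replicate 2 and -0.68 on replicate 4, so its sign turned in the common set. The block-subtracted means were -0.39 for AstC and -0.58 for Nplp1. Pdf was then negative in all 3 sets, but on replicate 4 only by -0.075. The share of all units negative in all 3 sets after this subtraction was not counted, so nothing is read from these signs. No part of position in these ratios was tested beyond this subtraction.

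The block of 7B2 was near 0, with a median of -0.10 in the common set, 0.04 on replicate 2 and -0.30 on replicate 4. The 20 measured spots nearest to 7B2 in spot number had a median of 0.01 on replicate 4. With the block median subtracted, 7B2 was at -0.30 in the common set, 0.31 on replicate 2 and -3.0 on replicate 4. The low value on replicate 4 was nearly as large after the subtraction.

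After array centring, the other measured precursors had mean ratios nearer to 0 than Pdf, AstC and Nplp1. Of 49 neuropeptide precursor genes listed, 12 were spotted with a gene name, 8 had a value on at least 1 array and 5 had one in all 3 sets. Capa, which encodes capability peptides that act on the renal tubules, was at -0.30 in the common set, 0.11 on replicate 2 and 0.39 on replicate 4. Ilp2, an insulin-like peptide of the brain's insulin-producing cells, was at -0.41, -0.20 and 0.33 in the same order. Their means were 0.07 and -0.09, with limma adjusted p of 0.85 and 0.79, and neither was of 1 sign in all sets. With the block median subtracted, the mean was -0.26 for Capa and -0.68 for Ilp2. Ilp2 was then lower than Pdf (-0.40), AstC (-0.39) and Nplp1 (-0.58). The difference between the chosen and the other precursors was not tested, because the chosen ones were picked on their ratios.

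Another 3 precursors lacked replicate 2, the array on which AstC and Nplp1 were lowest. Mip, the myoinhibitory peptide precursor, was at -0.28 in the common set and 0.26 on replicate 4. Nplp3 was at 0.05 and 0.19, and amn, a memory gene that encodes a neuropeptide precursor, at 0.44 and 0.19. With them counted, the median mean over 8 precursors was -0.05, against -0.76 over the 5 with every set. The median of all 4002 units was -0.02. Nplp2, Eh, FMRFa and ITP were spotted but had no value.

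**Figure D4:**
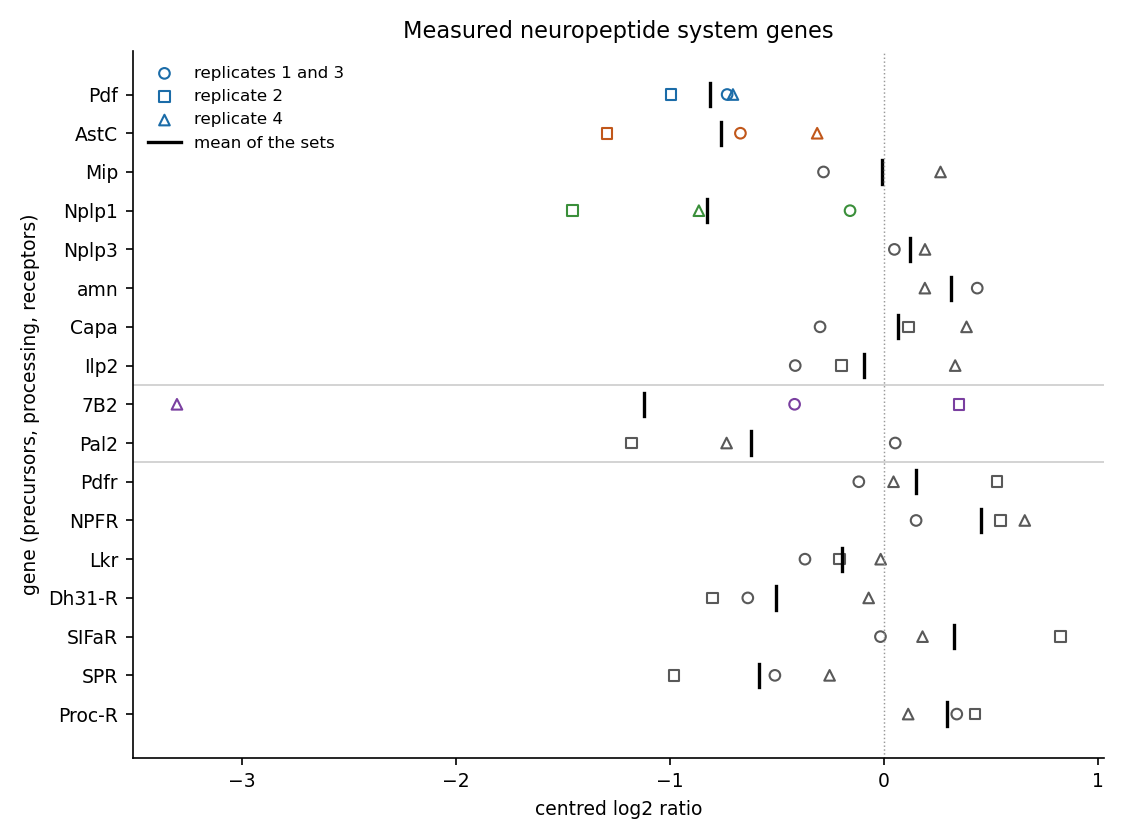
Centred log2 ratios (horizontal axis) of every measured gene of the lists of precursors (top), processing genes (middle) and receptors (bottom), with 1 symbol for each set and a black line at their mean. Pdf, AstC and Nplp1 are the precursors with means between -0.83 and -0.76, while the other 5 precursors lie between -0.09 and 0.31.

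Among 13 genes of peptide processing and secretory granules, 7 were spotted with a name, and 7B2 and Pal2 had values. Pal2 encodes a lyase of the final step of peptide amidation. It was at 0.05 in the common set, -1.18 on replicate 2 and -0.74 on replicate 4, low on the same arrays as Nplp1. Its mean was -0.62 ± 0.62 (SD, n = 3 sets; limma adjusted p = 0.156), and 0.10 with the block median subtracted. Pal1, Phm, svr, Fur2 and the peptidergic transcription factor gene dimm were spotted without a value. The partner enzyme of 7B2, amon, was not analysed here.

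Receptor genes had ratios of both signs after array centring. Of 40 listed, 13 were spotted with a name and 7 had values in all 3 sets, with a median mean of 0.15. None of the 7 passed an adjusted p of 0.05 in either comparison, where 8.75% and 0.00% of all units did, and unadjusted p-values under 0.05 numbered 1 in the mean (33.6% of all units) and 0 in the dye-exchange difference (4.32% of all units). Pdfr, the receptor of the Pdf peptide, was at -0.12 in the common set, 0.53 on replicate 2 and 0.04 on replicate 4, with a mean of 0.15 (limma adjusted p = 0.647). Its mean was -0.48 with the block median subtracted. AstC-R1 was spotted without a value.

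SPR, which binds the Mip peptides and the sex peptide, was negative in each set. It was at -0.51 in the common set, -0.98 on replicate 2 and -0.25 on replicate 4, with a mean of -0.58 (limma unadjusted p = 0.0329, adjusted p = 0.116). The receptor gene of the diuretic hormone Dh31, Dh31-R, was at -0.64, -0.80 and -0.07 in the same order (adjusted p = 0.160), and the leucokinin receptor gene Lkr was at -0.37, -0.21 and -0.02 (adjusted p = 0.508). In all, 3 of 7 receptors had a negative ratio in every set (26.2% of all units) and 2 had a positive one (28.8% of all units). The 2 positive ones were the neuropeptide F receptor gene NPFR, with a mean of 0.45 (adjusted p = 0.168), and the proctolin receptor gene Proc-R, with a mean of 0.29 (adjusted p = 0.321). SIFaR, the receptor gene of SIFamide, had a mean of 0.33 (adjusted p = 0.349) and a negative value in 1 set. With the block median subtracted the receptors' median was -0.14, against -0.03 over all units. The means of all 7 were then negative, with -0.14 for NPFR, -0.0025 for Proc-R and -0.03 for SIFaR.

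Clock genes are given because Pdf marks pacemaker neurons. Of 16 listed, 7 were spotted with a name and per and jet had values. The gene per, a repressor of the circadian loop, was at 0.03 in the common set, 0.14 on replicate 2 and -0.82 on replicate 4. The gene jet, an F-box protein of the light response, was at 0.10, -0.80 and -0.44 in the same order. Neither was of 1 sign in all sets. The genes tim, Clk, Pdp1 and cry were spotted without a value.

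The 3 neuronal markers with values in all sets had ratios of both signs. The neuronal synaptobrevin gene nSyb was at 0.20 in the common set, -1.20 on replicate 2 and 0.01 on replicate 4. Its low set was that of AstC and Nplp1. The adhesion gene Nrg had a mean of 0.01 and Gad1, which makes the transmitter GABA, a mean of 0.37. The median mean was 0.01 over the 3 neuronal markers, -0.02 over 7 glial, -0.18 over 5 photoreceptor, -0.11 over 5 fat body, -0.40 over 6 muscle and 0.14 over 8 gut digestive enzyme genes. With block medians subtracted these medians were -0.35 for neuronal, -0.23 for glial, 0.01 for photoreceptor, -0.04 for fat body, 0.002 for muscle and -0.03 for gut genes. With 1 replicate left out they ran from -0.03 (without replicate 4) to 0.11 (without replicate 2) for neuronal and from -0.42 (without replicate 1) to 0.15 (without replicate 2) for glial genes. Photoreceptor genes ran from -0.33 (without replicate 4) to -0.12 (without replicate 2) and fat body genes from -0.15 (without replicate 1) to 0.51 (without replicate 4). Muscle genes ran from -0.50 (without replicate 4) to -0.22 (without replicate 1) and gut genes from -0.06 (without replicate 1) to 0.13 (without replicate 3). Leaving out a replicate also changed which genes were counted. Without replicate 1 the common set was replicate 3 alone, with identical values. Apart from a small centring offset, those medians moved because genes lacking a replicate 3 value dropped out. Of the 26 neuronal, glial, photoreceptor, fat body and muscle markers, 0 passed the limma threshold in the mean, against 8.75% of all units, and 8 had an unadjusted p under 0.05, against 33.6% of all units (1345). Of the 8 gut genes 2 passed, both positive, where 7.45% of all units passed on that side. The part of cell composition in the ratios of the 4 genes was not tested.

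The named genes most like each of the 4 were found by Euclidean distance over the 3 centred sets, among 2026 other named genes. Nearest to Pdf were Gapdh1, which encodes a glycolytic dehydrogenase, at a distance of 0.11, Rift at 0.13 and CG6282 at 0.15. Nearest to AstC were Ppcs, a gene of coenzyme A synthesis, at 0.06, ATPsynC, a subunit gene of the mitochondrial ATP synthase, at 0.11, and betaGlu at 0.14. Nearest to Nplp1 were CG34417 at 0.21, the adaptor protein gene Crk at 0.21 and lncRNA:CR32553 at 0.28.

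No precursor was among the 3 nearest genes of another. AstC lay at a distance of 0.50 from Pdf, where 130 of 2026 named genes were nearer to Pdf and 103 nearer to AstC. Nplp1 lay at 0.75 from Pdf, with 326 named genes nearer to Pdf and 155 nearer to Nplp1. The precursors were chosen on these same ratios, so nothing is read from their distances. Nearest to 7B2 were the yolk protein gene Yp2 at 1.20, the haemoglobin-like gene glob1 at 1.25 and the scavenger receptor gene santa-maria at 1.38. These distances were larger than those around the precursors. On replicate 4 the spots of Yp2 differed by 6.12 and those of glob1 by 6.55, against 0.77 for 7B2. The distances of Yp2 and glob1 to 7B2 thus rest on means of unlike spots. Pdf, AstC and Nplp1 were at distances of 2.94, 3.42 and 3.04 from 7B2.

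**Figure D5:**
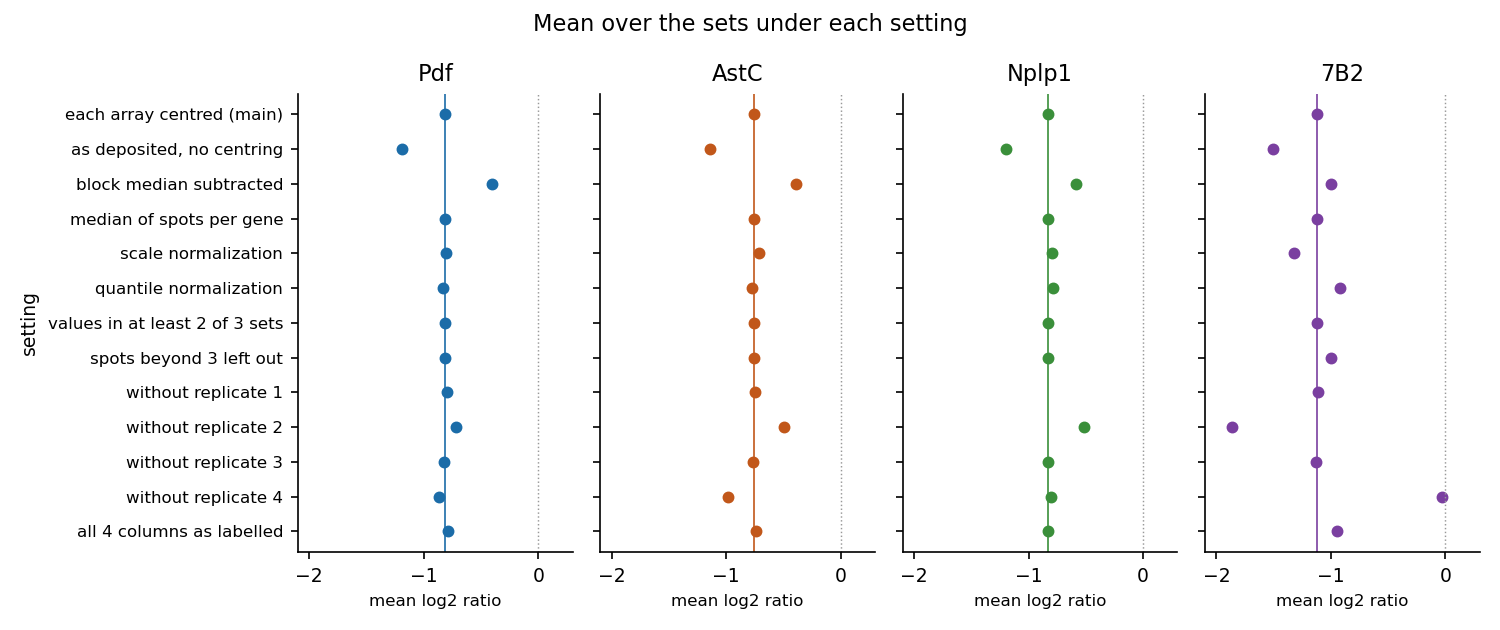
Mean log2 ratio over the sets (horizontal axis) of Pdf, AstC, Nplp1 and 7B2 under each setting (vertical axis), with a coloured line at the value after centring each array and a dotted line at 0. Each mean stayed negative under each setting drawn. The values nearest to 0 were -0.40 for Pdf and -0.39 for AstC with block medians subtracted, -0.51 for Nplp1 without replicate 2 and -0.03 for 7B2 without replicate 4. Nplp1 has no value without replicate 1.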

How the data were processed

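Head RNA of strychnine-fed and control males was hybridised as 4 two-colour arrays. Per the series' design text, the authors quantified images with GenePix Pro 6.0 and normalized ratios with Acuity 4.0. It also describes filters on raw intensity (a bound of 100 units), saturation (under 3% of pixels) and flags. Further filters were on regression R2 (at least 0.6) and signal to noise (at least 3). The same text names SAM 3.0. The deposited values were read as log2 ratios, and no source used here states their log base, centring or direction. Ratio normalization applies 1 factor to an array and removes no trend across the slide.

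Each column was centred on its median and the identical columns of replicates 1 and 3 were averaged. Their medians differ by 0.058, so spots without replicate 3 are offset by 0.029. Duplicate spots were averaged by gene symbol of the platform annotation, and unnamed spots by pair. Of 15116 spots with 1 symbol, 14894 matched a RefSeq table (Release 6), which changed 0 symbols. No coordinates are given, because the array names no build. Both comparisons were fitted over 4002 units with limma 3.58.1 in R 4.3.3 (two-sided, Benjamini-Hochberg, threshold 0.05) and tested on simulated data. The dye-exchange fit had a dye term, with the common set of replicates 1 and 3 coded 0 for treatment. The members, the lists and the rule for named genes were chosen with earlier results of these data known. The rule takes the 4 genes, every measured gene of the precursor, processing and receptor lists, and the 3 nearest named genes of each member. Marker lists are given by medians. Whether the biological replicates came from separate vials rests on the labels alone. Alternatives covered centring, slide blocks, spot averaging, scale and quantile normalization, missing and extreme values, single spots, a threshold of 0.10, the dye term, each replicate left out and all 4 columns as labelled.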

Additional observations from a re-analysis of the deposited data

How the results depend on the processing

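The mean ratios of Pdf, AstC, Nplp1 and 7B2 stayed negative under each setting run. The Pdf mean moved by more than its SD to -1.19 on the values as deposited and to -0.40 with block medians subtracted. In the dye-exchange difference only Nplp1 changed sign, to 0.0291 without replicate 3, where the common set counts as Cy5. It has no value there without replicate 1, nor with all 4 columns. The precursor list median was -1.14 as deposited, -0.0512 with values in at least 2 sets and -0.14 with all 4 columns, and with 1 replicate left out it ran from -0.81 to -0.0251. The settings that gave -0.0512, -0.14 and -0.0251 add Mip, Nplp3 and amn. The receptor median was -0.23 as deposited and -0.14 with block medians subtracted.

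Of the mean over the sets, limma called 350 units after centring. It called 0 as deposited (1493 at an unadjusted p under 0.05), 0 with scale normalization (1337) and 0 with single spots (2595). Block medians left 8, quantile normalization gave 559, leaving out spots beyond 3 gave 576, all 4 columns gave 1238 and a threshold of 0.10 gave 1002. With 1 replicate left out the count ran from 7 to 503. The dye-exchange difference gave 11 as deposited, 5 with quantile normalization and 1 to 2 with replicate 1 or 3 left out. It could not be formed without replicate 2 or 4. No paired analysis was possible because each array already sets treated against control RNA of 1 replicate, in 1 group. Brightness is unknown, so what signal over background limits cannot be given.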
